A study of Mus musculus with 48 samples.

Results

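Liver gene expression was compared between male Pparα-/- mice, in which Pparα is deleted in the whole body, and male Pparα hep-/- mice, in which it is deleted in hepatocytes, both fed the control diet (CTRL). The comparison takes every array labelled PPARaKO or PPARaLKO on the diet labelled CTRL, 8 mice in each group, which are 16 of the 48 arrays of the series. All mice were 20 weeks old and had eaten their diet for 12 weeks, as labelled, although the study's text gives a shorter time. They were housed at thermoneutrality and killed in the fed state. The Pparα hep-/- mice carried floxed Pparα alleles, whose exon 4 is cut out by a Cre recombinase under the albumin promoter, so their other liver cells and their other organs keep the gene. The Pparα-/- mice came from a separate line kept by the laboratory, and the wild-type (WT) mice from a commercial breeder. The deletion outside hepatocytes and the line or breeding of the mice therefore cannot be told apart in any difference given here. The other 32 arrays are WT CTRL mice and the 3 genotypes on a high-fat diet (HFD), and they were used to estimate the spread and as side-by-side values.

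PPARα is a nuclear receptor that senses fatty acids and, bound to DNA with its partner RXR, turns on genes of fatty acid uptake, peroxisomal and mitochondrial oxidation, omega-hydroxylation and ketone production in the liver. It is best known there for the response to fasting, and it also represses genes of inflammation and of the acute-phase response. Besides hepatocytes, it is active in brown fat, heart, kidney, muscle and intestine, so a whole-body deletion reaches the liver by several routes that a hepatocyte deletion does not.

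Between 28234 and 38217 spots of an array were well above background in the 16 mice, and the number of mice limits the precision, since arrays have no read depth. An array's median correlation with the other arrays of its group across probes was 0.971 to 0.994. Replicate 1 of the Pparα hep-/- mice stood apart, with the lowest of these correlations and the lowest array weight (0.189). Replicate 3 of the Pparα-/- mice had the fewest spots above background and the lowest weight of its group (0.419). The fit used here gives such arrays less weight, and values without each of them stand beside the results that move. Mice of a group were separate animals, and no pair of arrays was a duplicate. Hepatocyte markers were the brightest marker list, with a mean log2 signal of 17.03 to 17.22 in the 8 Pparα-/- mice and 17.10 to 17.34 in the 8 Pparα hep-/- mice. Of the pancreas markers 10 of 17, and of the white adipocyte markers Adipoq, Plin1 and Nnat, were too dim to be tested. A lower signal from fewer cells of a type and from less RNA per cell cannot be told apart in whole liver.

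Ppara itself was read by 2 probes on chromosome 15, and RNA was measured by both in all 16 mice. Values are log2 signals throughout, and differences are Pparα-/- minus Pparα hep-/- on the log2 scale, as fitted by limma, with Benjamini-Hochberg adjusted p. The probe at chr15:85637193-85637252 (mm9) had signals from 11.36 to 11.87 in Pparα-/- mice (median 11.81) and from 11.77 to 12.95 in Pparα hep-/- mice (median 12.80). Only the Pparα hep-/- replicate 1 lay within the range of the Pparα-/- mice; the other 7 were above all of them. The difference was -1.01 (standard error 0.09, adjusted p = 4.29e-13), a signal 2.01-fold lower in Pparα-/- mice, and -1.03 without that replicate. In WT mice the same probe had a median of 12.86, and its difference of -0.10 between Pparα hep-/- and WT mice did not pass the test (adjusted p = 0.454). The brighter probe, at chr15:85632110-85632169, ranged from 13.53 to 14.09 in Pparα-/- mice (median 13.92), from 13.26 to 14.28 in Pparα hep-/- mice (median 14.11) and from 14.03 to 15.07 in WT mice (median 14.54). Its difference of -0.23 between the knockouts did not pass the test (standard error 0.09, adjusted p = 0.0572), and its call depended on the setting. It passed without Pparα hep-/- replicate 1 (-0.25, adjusted p = 0.0271) or replicate 5, with the processed signal and with only the arrays compared, and was -0.15 without array weights (adjusted p = 0.428). The files do not place either probe relative to the deleted exon, so neither is a direct check of the deletion.

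Of 33323 probes tested, 8401 differed between the knockouts at an adjusted p of at most 0.05, which is 25.2% of them. The numbers of probes higher and lower in Pparα-/- mice were close, at 4073 and 4328. Most differences were small, with a median size of 0.37 among the called probes, and 825 of them were at least 1 on the log2 scale. In 1468 called probes, or 4.41% of those tested, the 8 mice of each group did not overlap. Counted by gene, with the brightest probe of each, 5854 of 22029 genes were called, or 26.6%, with 13.2% higher and 13.4% lower, and 4.77% were called without overlap. The median difference over all genes was 0.00.

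**Figure D1:**
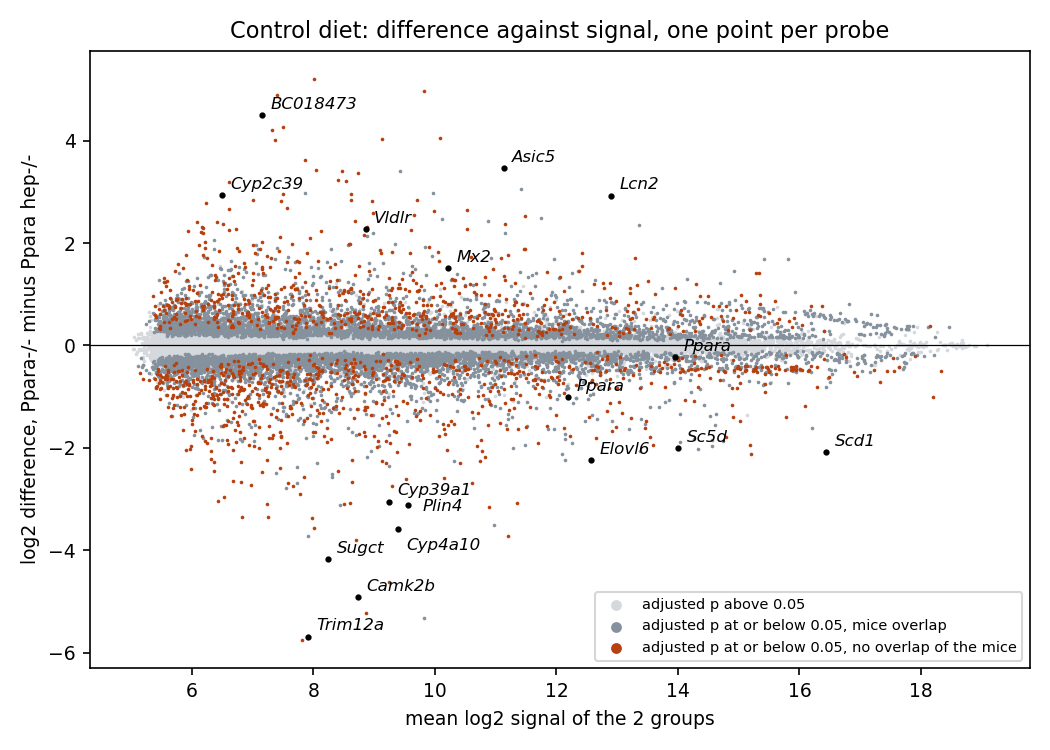
Log2 difference between Pparα-/- and Pparα hep-/- mice on the CTRL diet against the mean log2 signal of the groups, with 1 point per probe. Grey points did not pass an adjusted p of 0.05, blue-grey points passed it with overlapping mice, orange points passed it with no overlap, and black points mark genes described in the text. Called probes lie on both sides of 0, with Trim12a far below and BC018473 far above it. Both were not well above background in 1 group, so their plotted sizes are not exact.

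Against this background, lists of genes differed widely in how many members were called and in which direction. Cholesterol synthesis, fatty acid and triglyceride synthesis, interferon-stimulated genes and lipid droplet genes with other PPARα targets each had over 50 percent of their tested members lower in Pparα-/- mice, and 0 or 1 member higher. Acute-phase proteins had 12 of 28 members higher and 0 lower. Collagens and matrix genes had 2 of 33 higher and 0 lower, fewer than the background, and 4 called without Pparα hep-/- replicate 2.

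**Figure D2:**
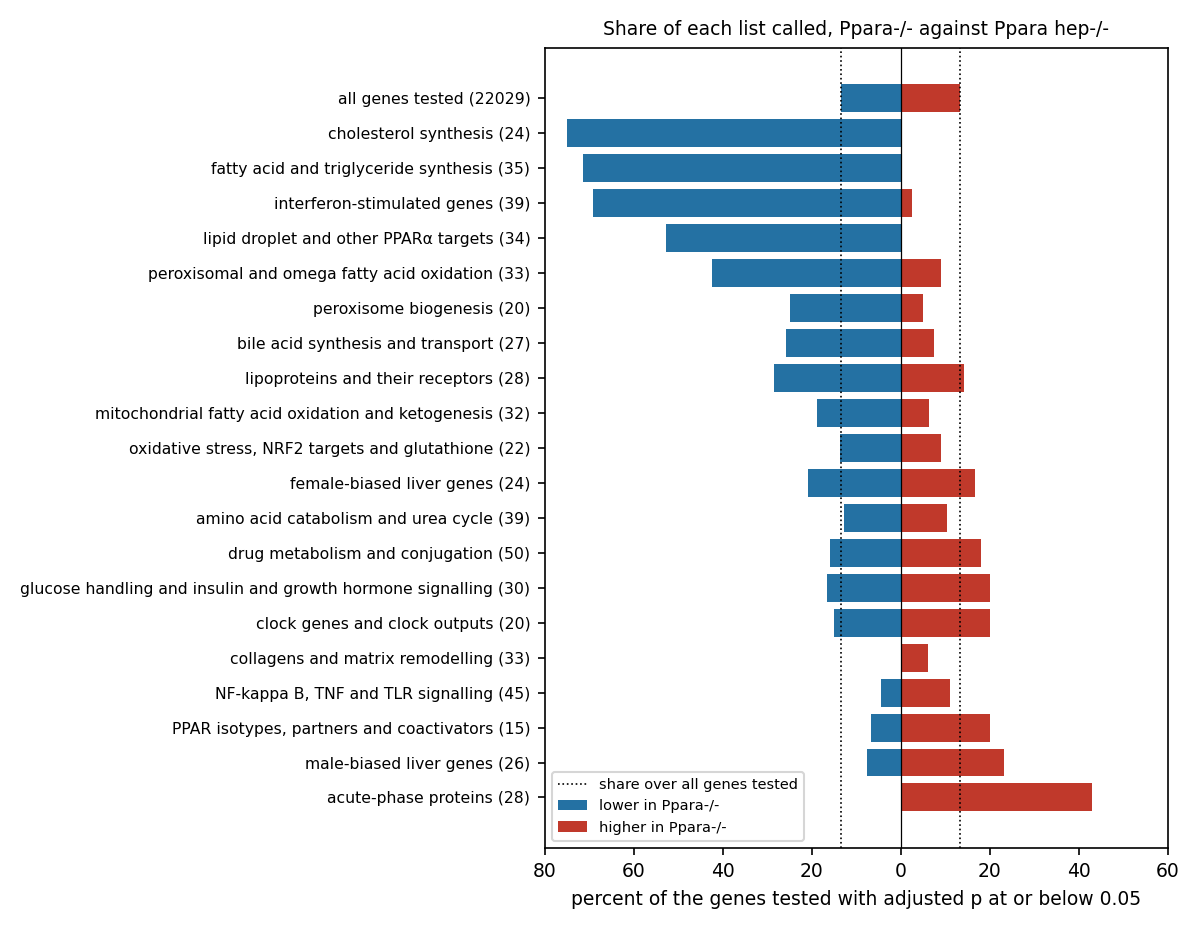
Percent of the tested genes of each list that were called higher (right, red) or lower (left, blue) in Pparα-/- than in Pparα hep-/- mice on the CTRL diet, with the number tested in brackets. Dotted lines mark the shares over all genes, 13.2% higher and 13.4% lower, and the lists of lipid synthesis and interferon-stimulated genes extend far beyond the line on the lower side.

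Genes of omega-hydroxylation and peroxisomal oxidation, the classical targets of PPARα, were lower in Pparα-/- mice in 14 of 33 tested members and higher in 3, with a median difference of -0.25. Cyp4a10, a fatty acid omega-hydroxylase, had signals from 6.38 to 9.76 in Pparα-/- mice (median 7.12) and from 9.80 to 12.57 in Pparα hep-/- mice (median 11.41). The groups did not overlap, and Pparα-/- replicates 2 and 3, at 9.76 and 9.49, lay close to the lowest Pparα hep-/- mice. The difference was -3.59, or 12.1-fold (standard error 0.52, adjusted p = 3.8e-07), and 1 of the other Cyp4a10 probes gave -2.09. A further probe of Cyp4a10 was lower (adjusted p = 0.000525), with no exact size because only 2 of 8 Pparα-/- arrays were above background. Cyp4a31, its neighbour and close relative on chromosome 4, followed the same mice, from 8.03 to 11.38 (median 8.80) against 11.31 to 14.26 (median 12.88), with a difference of -3.50 (standard error 0.51, adjusted p = 5.33e-07). Here the highest Pparα-/- mouse exceeded the lowest Pparα hep-/- mouse. Probes of these near-identical genes may share transcripts. In WT mice the medians were 10.96 and 12.40, and neither gene differed between Pparα hep-/- and WT mice (0.71, adjusted p = 0.38, and 0.79, adjusted p = 0.315).

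Other members of this list fell by less. Ech1, a peroxisomal and mitochondrial isomerase of unsaturated fatty acids, had a signal of 12.40 ± 0.39 (SD, n = 8) in Pparα-/- and 13.76 ± 0.34 in Pparα hep-/- mice without overlap, a difference of -1.32 (standard error 0.13, adjusted p = 6.95e-11). Crat, which moves acyl groups between coenzyme A and carnitine, differed by -1.28 (adjusted p = 0.000701). Ehhadh, an enzyme of peroxisomal oxidation, differed by -0.58 (adjusted p = 0.00782). The 3 members that were higher were Cyp4f15 and the enzymes Amacr and Acox2, which act on branched chains and bile acid side chains. Acox2 had signals from 14.82 to 15.58 in Pparα-/- mice (median 15.29) and from 14.14 to 15.01 in Pparα hep-/- mice (median 14.33), a difference of 0.84 (standard error 0.10, adjusted p = 1.62e-09), and only the Pparα hep-/- replicate 1 reached into the other range. For Amacr the Pparα hep-/- mice were the group that stood out, with a median of 13.40 against 14.70 in Pparα-/- and 14.70 in WT mice, and its difference between the knockouts was 1.30 (standard error 0.20, adjusted p = 2.1e-06).

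Lipid droplet genes and other PPARα targets were lower in 18 of 34 tested members and higher in 0, with a median of -0.37. Plin4, a coat protein of lipid droplets, ranged from 6.08 to 11.27 in Pparα-/- mice (median 7.54) and from 10.14 to 12.23 in Pparα hep-/- mice (median 11.03). Replicate 2 of the Pparα-/- mice, at 11.27, was the only one within the range of the other group, and in 1 Pparα-/- mouse the probe was not well above background. The difference was -3.11 (standard error 0.46, adjusted p = 6.22e-07). Cidec, which fuses droplets, was highest in the same Pparα-/- mouse (10.32, the next at 7.94), and the groups spanned 6.58 to 10.32 (median 7.81) and 8.78 to 13.10 (median 10.25). Its difference was -2.35 (standard error 0.58, adjusted p = 0.00189).

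The perilipin Plin5, which couples droplets to mitochondria, had 9.70 ± 0.39 (SD, n = 8) in Pparα-/- and 11.95 ± 0.41 in Pparα hep-/- mice with no overlap, a difference of -2.18 (standard error 0.31, adjusted p = 2.87e-07). WT mice had 13.40, so the hepatocyte knockout lay between the others. Vnn1, a pantetheinase, showed the same order, at 5.77 ± 0.72, 7.39 ± 1.00 and 9.41 in WT, and was lower in Pparα-/- mice (adjusted p = 0.00138), with 3 of 8 Pparα-/- arrays well above background, so that no exact size is given. Fitm1, a protein of droplet formation, differed by -1.42 (adjusted p = 0.000735), Angptl4, an inhibitor of lipoprotein lipase, by -0.86 (adjusted p = 0.00287), and Cd36, a fatty acid transporter, by -0.91 (adjusted p = 0.0143). Fabp1, the liver fatty acid binding protein, was among the brightest probes in both groups and differed by -0.18 (adjusted p = 0.00963). The hormone gene Fgf21 did not pass the test between the knockouts (-0.72, adjusted p = 0.183), while it was 3.57 lower than WT in Pparα-/- mice and 2.85 lower in Pparα hep-/- mice on the log2 scale, comparisons that share the WT mice.

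Fabp1 was the only gene of the PPARα lists whose promoter window held AGGNCANAGGNCA, the spaced repeat that PPARα and RXR bind, on either strand. A window is the 250 bases before the annotated start in RefSeq (GRCm38.p6), and was given for 27 of the 34 genes of this list, 21 of the peroxisomal list and 27 of the mitochondrial list below. The letters occur in 0.338% of all 32851 windows and in 0.4% of all genes with a window. Sites of this receptor often lie farther from the start than these windows reach. The window of Fabp1 is shown because it carries the match. The plus strand is printed, at chr6:71199629-71199878, and the capitals mark the reverse complement of the motif.
Fabp1: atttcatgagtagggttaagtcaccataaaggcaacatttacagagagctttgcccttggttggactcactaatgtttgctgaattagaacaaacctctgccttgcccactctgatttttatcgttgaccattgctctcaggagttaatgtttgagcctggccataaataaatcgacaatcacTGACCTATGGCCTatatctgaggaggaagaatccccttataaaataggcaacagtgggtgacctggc

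**Figure D3:**
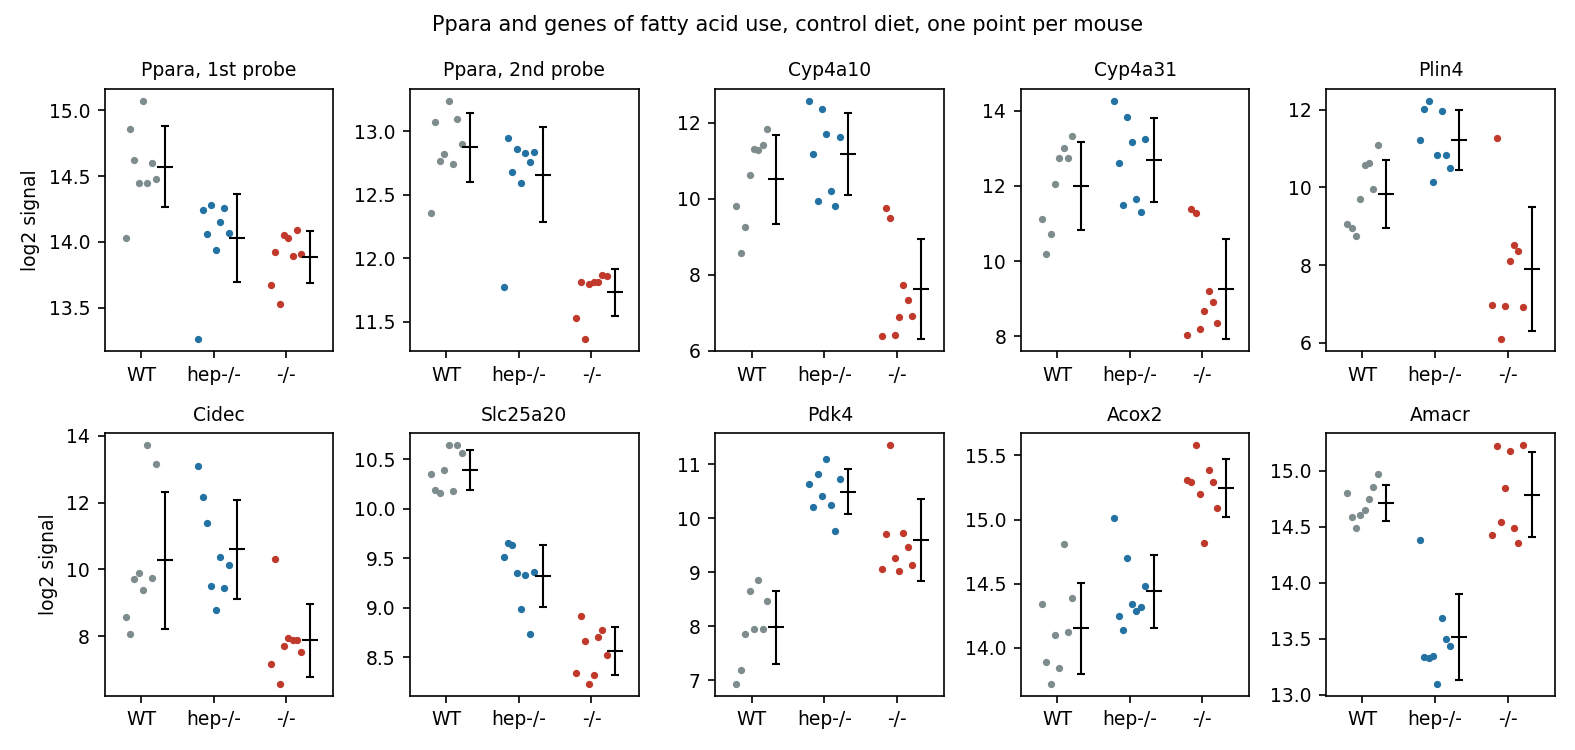
Log2 signal of Ppara (brighter and dimmer probe) and of 8 genes of fatty acid use in WT, Pparα hep-/- (hep-/-) and Pparα-/- (-/-) mice on the CTRL diet, with 1 point per mouse and mean ± SD in black. Cyp4a10, Cyp4a31, Plin4 and Cidec are lower in Pparα-/- mice with replicate 2 as the highest of them, Slc25a20 falls in steps over the 3 genotypes, and Amacr is low in Pparα hep-/- mice.

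Genes of mitochondrial oxidation and ketogenesis were called about as often as all genes, with 2 of 32 tested members higher, 6 lower and a median of -0.09. Without Pparα-/- replicate 1, 2 were higher and 3 lower. Slc25a20, the carnitine-acylcarnitine carrier, was lower in Pparα-/- mice, from 8.23 to 8.91 (median 8.59) against 8.73 to 9.65 (median 9.36), with a difference of -0.75 (standard error 0.13, adjusted p = 1.06e-05). WT mice ranged from 10.16 to 10.64, above every knockout mouse of both kinds. Pdk4, a kinase that blocks pyruvate use, had 9.03 to 11.35 (median 9.37) in Pparα-/- and 9.76 to 11.09 (median 10.52) in Pparα hep-/- mice, with the highest value in Pparα-/- replicate 3. Its difference was -1.07 (adjusted p = 0.011), or -1.15 without that mouse, and it did not pass without array weights (adjusted p = 0.058). Both knockouts exceeded the WT median of 7.95. Acad10, an acyl-CoA dehydrogenase, was higher without overlap in Pparα-/- mice, from 11.83 to 12.29 against 10.36 to 11.36, a difference of 1.03 (standard error 0.10, adjusted p = 3.22e-11). Set against WT, this list went both ways, with 11 of 32 members called up and 14 down in Pparα-/- mice (median -0.12). In Pparα hep-/- mice 6 were called up and 11 down (median -0.03). For all genes tested, the shares were 16.9% up and 18.4% down, and 12.3% up and 12.9% down. Some enzymes of the central pathway, named after their values were seen, were low in both knockouts relative to WT and did not pass the test between them. These comparisons share the WT mice. Acadvl, the dehydrogenase of very long chains, was 1.08 lower than WT in Pparα-/- and 1.05 lower in Pparα hep-/- mice, with a difference of -0.03 between them (adjusted p = 0.767). Etfdh, which passes the electrons on, was 1.12 and 0.94 lower than WT, with -0.18 between the knockouts (adjusted p = 0.101), and the carnitine transferase Cpt2 was 1.00 and 0.86 lower, with -0.15 between them (adjusted p = 0.253).

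Among the receptor's partners and coactivators, 3 of 15 tested genes were higher in Pparα-/- mice and 1 was lower. Ppargc1a, the coactivator of mitochondrial genes, ranged from 7.65 to 9.69 (median 8.90) against 9.22 to 10.14 (median 9.43), a difference of -0.87 (standard error 0.18, adjusted p = 0.000179). Of the peroxisome biogenesis genes 1 of 20 was higher and 5 were lower, among them the division factor Pex11a at -0.64 (adjusted p = 0.0113). Without Pparα-/- replicate 6 the counts were 0 and 3.

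Fatty acid and triglyceride synthesis was lower in Pparα-/- mice in 25 of 35 tested members and higher in 0, with a median of -0.84. These enzymes build fatty acids from citrate and acetyl-CoA, lengthen and desaturate them, and are driven in the liver by SREBP1 and ChREBP. Elovl6, which lengthens palmitate, ranged from 10.83 to 13.17 in Pparα-/- mice (median 11.41) and from 12.31 to 15.19 in Pparα hep-/- mice (median 13.53), and 2 Pparα-/- mice, replicates 3 and 4, lay within the other range. The difference was -2.24, or 4.72-fold (standard error 0.29, adjusted p = 3.35e-08). Scd1, the stearoyl-CoA desaturase, was spread over 14.24 to 17.03 in Pparα-/- mice (median 15.68) and held between 16.89 and 17.89 in Pparα hep-/- mice (median 17.19), a difference of -2.09 (standard error 0.39, adjusted p = 5.05e-05).

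The main synthetic enzymes followed. Fasn, the fatty acid synthase, had 15.46 ± 0.71 (SD, n = 8) against 16.97 ± 0.80, a difference of -1.62 (standard error 0.33, adjusted p = 0.000177). The citrate lyase Acly differed by -1.38 (adjusted p = 9.54e-05) and the acetyl-CoA carboxylase Acaca by -1.21 (adjusted p = 4.23e-06). Me1, the malic enzyme, did not overlap between the groups, at 11.37 ± 0.61 and 13.08 ± 0.76, and differed by -1.77 (adjusted p = 0.000366). The desaturases of polyunsaturated fatty acids, Fads2 and Fads1, differed by -1.39 (adjusted p = 3.58e-08) and -0.84 (adjusted p = 1.48e-07), both without overlap. The transcription factor genes Srebf1 and Mlxipl did not pass the test between the knockouts, at 0.16 (adjusted p = 0.603) and -0.16 (adjusted p = 0.298). Relative to WT mice, 17 of the 35 genes were lower and 0 higher in Pparα-/- mice, with a median of -0.48, and 3 were lower and 10 higher in Pparα hep-/- mice, with a median of 0.21. Over all genes 16.9% were higher and 18.4% lower than WT in Pparα-/- mice (35.3% called), and 12.3% and 12.9% in Pparα hep-/- mice (25.2% called). Both comparisons share the WT mice. Acss2, which activates acetate, had 12.84 in Pparα-/-, 12.88 in WT and 14.08 in Pparα hep-/- mice. It passed the test against WT in Pparα hep-/- mice (1.15, adjusted p = 0.000228) and not in Pparα-/- mice (-0.38, adjusted p = 0.235).

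Cholesterol synthesis was lower in 18 of 24 tested members and higher in 0, with a median of -0.72. Sc5d, the sterol desaturase of a late step, ranged from 12.61 to 13.81 in Pparα-/- mice (median 13.08) and from 14.54 to 15.38 in Pparα hep-/- mice (median 14.93) with no overlap, and WT mice ranged from 14.59 to 15.16. Its difference was -2.0, or 3.99-fold (standard error 0.14, adjusted p = 9.69e-16), and its other probe gave -1.05 (adjusted p = 1.66e-05). Fdps, the synthase of farnesyl pyrophosphate, ranged from 13.07 to 15.26 (median 13.93) against 14.58 to 16.49 (median 15.24), a difference of -1.86 (standard error 0.29, adjusted p = 2.71e-06). The highest Pparα-/- mouse was again replicate 3. Sqle, which oxidises squalene, differed by -1.82 (adjusted p = 2.46e-05), and Hmgcs1, the synthase at the entry of the pathway, by -1.64 (adjusted p = 1.17e-05). Their regulator Srebf2 differed by -0.24 (adjusted p = 0.00972). The mean of Sqle was 11.33 in Pparα-/-, 11.63 in WT and 12.96 in Pparα hep-/- mice.

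RefSeq gave a promoter window for 16 of the 24 cholesterol genes, and all 16 held CCAAT on either strand, the box bound by NF-Y beside sterol response elements. Over all genes with a window 37.5% held these letters. TCACNCCAC, a form of the sterol response element, was in 1 of the 16, Hmgcs1, and in 1.22% of all genes with a window. Windows are shown for the entry enzyme Hmgcs1, with that element in capitals (plus strand, chr13:119690101-119690350), and for Sc5d, the member without overlap, with the reverse complement of CCAAT in capitals (minus strand, chr9:42264301-42264550).
Hmgcs1: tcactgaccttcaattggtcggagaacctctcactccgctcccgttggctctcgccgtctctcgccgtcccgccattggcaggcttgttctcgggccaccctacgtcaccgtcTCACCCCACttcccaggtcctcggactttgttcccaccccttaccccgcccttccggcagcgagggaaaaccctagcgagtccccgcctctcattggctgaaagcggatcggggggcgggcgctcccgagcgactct
Sc5d: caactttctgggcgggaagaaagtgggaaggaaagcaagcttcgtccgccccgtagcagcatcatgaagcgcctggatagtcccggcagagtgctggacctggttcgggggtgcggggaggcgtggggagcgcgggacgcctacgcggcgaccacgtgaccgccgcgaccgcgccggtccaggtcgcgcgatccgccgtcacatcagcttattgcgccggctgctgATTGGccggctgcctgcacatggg

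With Pparα hep-/- replicate 1 left out, 26 fatty acid and triglyceride and 18 cholesterol genes were lower, and with Pparα-/- replicate 3 left out, 26 and 18. Over all mice left out in turn, the counts ran from 24 to 26 and from 14 to 18, with medians of -0.90 to -0.79 and -0.84 to -0.55. Within the first wash batch, with 4 Pparα-/- and 3 Pparα hep-/- mice, the counts were 5 and 3 with medians of -0.57 and -0.33, and within the second, with 4 and 5 mice, 25 and 14 with medians of -1.03 and -0.95.

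**Figure D4:**
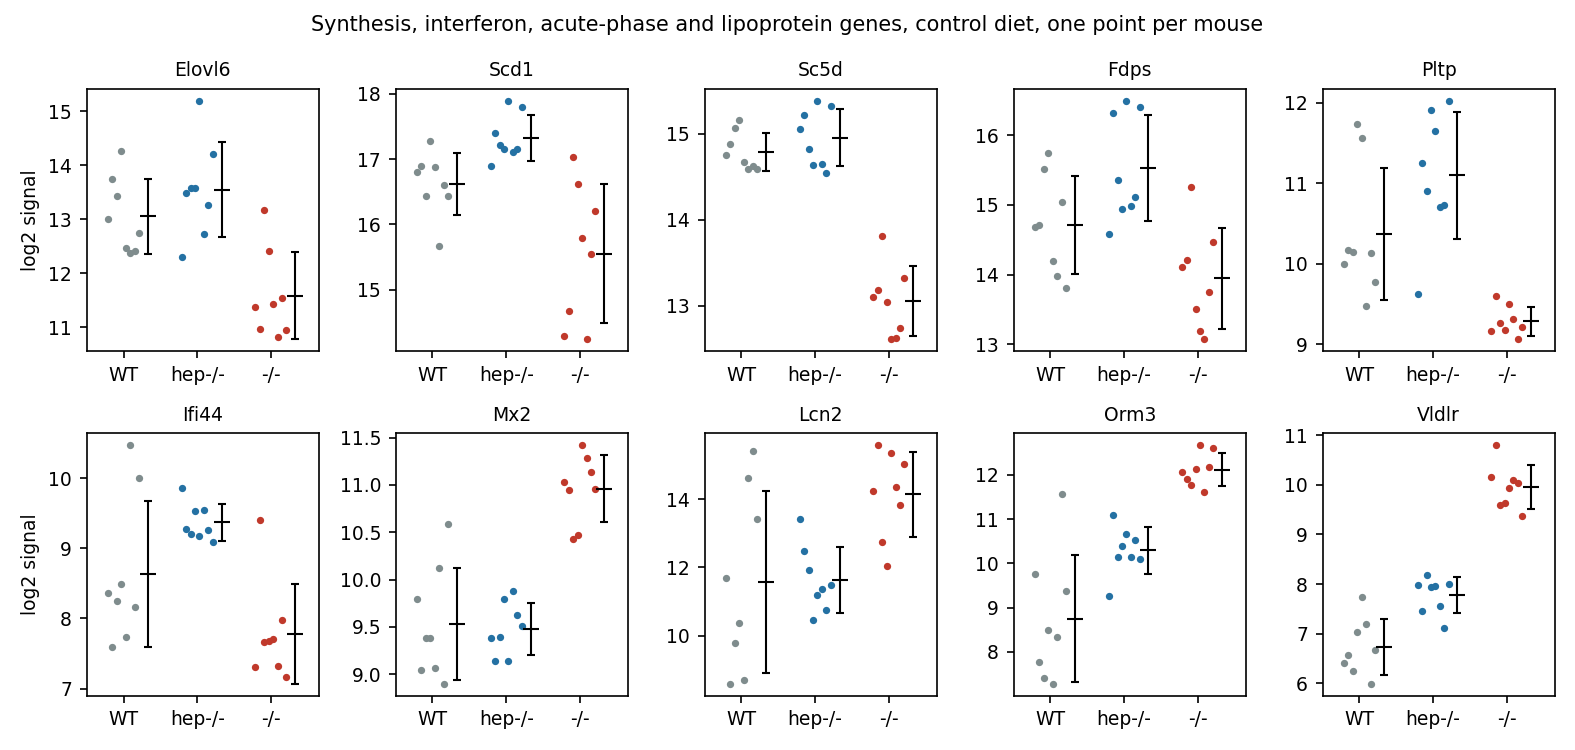
Log2 signal of 10 genes of lipid synthesis, interferon response, acute phase and lipoprotein handling in WT, Pparα hep-/- (hep-/-) and Pparα-/- (-/-) mice on the CTRL diet, with 1 point per mouse and mean ± SD in black. Sc5d and Pltp are lower and Mx2, Orm3 and Vldlr higher in all 8 Pparα-/- mice than in any Pparα hep-/- mouse.

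Interferon-stimulated genes, which encode antiviral effectors and their regulators, were lower in 27 of 39 tested members and higher in 1, with a median of -0.56. The 27 include Xaf1 by its brightest probe, although its probes went in opposite directions, as given below. Ifi44 ranged from 7.16 to 9.41 in Pparα-/- mice (median 7.68) and from 9.09 to 9.86 in Pparα hep-/- mice (median 9.27), and 7 of the 8 Pparα-/- mice lay between 7.16 and 7.97, below all of the others. Replicate 2, at 9.41, was within the Pparα hep-/- range. The difference was -1.61 (standard error 0.22, adjusted p = 1.39e-07). A dimmer Ifi44 probe was lower (adjusted p = 0.0359), with 3 of 8 Pparα-/- arrays above background, so no exact size is given. Usp18, which restrains the interferon receptor, had 9.25 ± 0.79 (SD, n = 8) against 10.82 ± 0.30 and differed by -1.47 (adjusted p = 5.93e-06). Irf7, the transcription factor that amplifies the response, differed by -1.07 (adjusted p = 2.08e-07), Ifit3 by -1.04 (adjusted p = 2.93e-05), Ifit1 by -0.95 (adjusted p = 0.00226) and the ubiquitin-like Isg15 by -0.84 (adjusted p = 0.000291). Stat2, which carries the signal, differed by -0.22 (adjusted p = 0.0079).

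The exceptions were large. Mx2, a GTPase of the same response, was higher in Pparα-/- mice without overlap, from 10.43 to 11.42 (median 11.00) against 9.14 to 9.88 (median 9.45), a difference of 1.51 (standard error 0.16, adjusted p = 1.66e-10). Xaf1 was lower by its brightest probe, 7.34 to 8.52 against 9.38 to 10.01, at -1.70 (adjusted p = 7.43e-14), but its other probe, above background on all 8 Pparα-/- and 0 of the 8 Pparα hep-/- arrays with means of 10.56 and 5.47, was at least 33-fold higher (adjusted p = 9.55e-33), so that no direction can be given for the gene. Set beside WT mice, the list was 28 of 39 members higher and 0 lower in Pparα hep-/- mice, with a median of 0.61, and 6 higher and 7 lower in Pparα-/- mice, with a median of 0.11, in comparisons that share the WT mice. Over all genes 12.3% were higher and 12.9% lower than WT in Pparα hep-/- mice, and 16.9% and 18.4% in Pparα-/- mice. Ifit1, for example, had 8.35 in Pparα-/-, 8.52 in WT and 9.36 in Pparα hep-/- mice. Without Pparα-/- replicate 2 the list had 29 members lower between the knockouts, and within the wash batches 12 each.

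GAAANNGAA, the core of the interferon-stimulated response element, was found on either strand in 18 of 30 promoter windows of this list, of which 21 belonged to genes called lower and 11 of these held it, beside 8.18% of all genes. The windows of Ifit1 (plus strand, chr19:34640639-34640888) and Isg15 (minus strand, chr4:156200819-156201068) are shown because each held the core 3 times, with overlaps, in capitals. In the window of Ifit1 the capitals are the reverse complement of the core.
Ifit1: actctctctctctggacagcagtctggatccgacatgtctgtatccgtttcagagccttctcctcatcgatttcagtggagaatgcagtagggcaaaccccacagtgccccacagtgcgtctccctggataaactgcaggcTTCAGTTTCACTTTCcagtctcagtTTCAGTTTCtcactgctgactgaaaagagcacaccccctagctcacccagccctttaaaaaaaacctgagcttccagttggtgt
Isg15: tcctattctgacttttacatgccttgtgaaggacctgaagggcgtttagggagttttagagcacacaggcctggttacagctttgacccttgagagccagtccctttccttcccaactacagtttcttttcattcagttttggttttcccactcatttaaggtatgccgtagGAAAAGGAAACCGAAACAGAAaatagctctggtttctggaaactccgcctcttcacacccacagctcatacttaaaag

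Acute-phase proteins, secreted by hepatocytes in response to cytokines, were higher in 12 of 28 tested members, with a median of 0.37. Lcn2, an iron-scavenging lipocalin, ranged from 12.03 to 15.58 in Pparα-/- mice (median 14.30) and from 10.46 to 13.42 in Pparα hep-/- mice (median 11.43), with 2 Pparα-/- mice within the other range. The difference was 2.93, or 7.62-fold (standard error 0.64, adjusted p = 0.000391), and WT mice were spread from 8.59 to 15.41. Orm3, an orosomucoid, did not overlap, at 11.62 to 12.67 (median 12.10) against 9.27 to 11.10 (median 10.28), and differed by 1.77 (standard error 0.44, adjusted p = 0.00171). The serum amyloids Saa1 and Saa2 were each 1.68 higher, with SDs of 1.56 and 1.65 in Pparα-/- mice (adjusted p = 0.0132 and 0.0103). Fga, a fibrinogen chain, was 0.78 higher without overlap (adjusted p = 0.000307), and haptoglobin, Hp, 0.36 higher (adjusted p = 5.21e-06). Of the NF-kappa B, TNF and TLR genes, 5 of 45 were higher and 2 lower, fewer than in the background, and 2 and 2 without Pparα-/- replicate 2, Pparα-/- replicate 6 or Pparα hep-/- replicate 4. Among them the chemokine Cxcl1 was 1.17 higher (adjusted p = 0.00505). Socs3, the feedback inhibitor of cytokine signalling, from the list of glucose handling, insulin and growth hormone signalling, was 1.18 higher (adjusted p = 0.00327). Neutrophil and T, NK and B cell markers had medians of 0.39 and 0.35 in the same comparison, and their part in these differences was not tested.

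Markers of the cell types of the liver had at most 5 called members in any list, with 7 to 24 tested in each. Over all genes 26.6% were called, 13.2% higher and 13.4% lower. Neutrophil markers were called at 30.8%, with 23.1% higher, and T, NK and B cell markers at 29.4%, with 23.5% higher. The other lists had shares of 0% to 25%, among them 8.33% for Kupffer cell and macrophage markers and 11.8% for stellate cell markers. Kupffer cell and macrophage markers had 1 of 24 higher and 1 lower, with a mean log2 signal over the list of 9.76 to 11.09 in Pparα-/- and 9.88 to 11.30 in Pparα hep-/- mice. Neutrophil markers had 3 of 13 higher and 1 lower, with a mean of 7.41 to 8.44 against 7.20 to 7.67. Their median was 0.39, with 11 of 13 above 0 and 8 with an unadjusted p under 0.05, beside 7990 of all 22029 genes. Of these Mpo, the myeloperoxidase, was 1.36 higher (adjusted p = 0.0242) and Elane, the elastase, 0.53 lower (adjusted p = 1.8e-06). The Mpo call was lost without Pparα-/- replicate 1 or replicate 8, with an adjusted p of up to 0.0628, and without array weights, and its other probe, above background on 0 of the 8 Pparα hep-/- arrays, did not pass the test (adjusted p = 0.0934). T, NK and B cell markers had 4 of 17 higher and 1 lower, with a mean of 7.51 to 8.25 against 7.57 to 8.43, a median of 0.35, 12 of 17 above 0 and 8 with an unadjusted p under 0.05. Jchain, of antibody-secreting cells, was 9.05 to 10.16 in Pparα-/- mice (median 9.49) and 7.58 to 8.37 in 7 Pparα hep-/- mice, while Pparα hep-/- replicate 1 had 11.59. Its difference was 1.5 (adjusted p = 0.00131), 1.58 without that replicate, and 1.11 without array weights, where it did not pass (adjusted p = 0.0619). Endothelial markers had 2 of 16 higher and 1 lower, with Stab2, a scavenger receptor of sinusoids, 0.66 higher without overlap by its brightest probe (adjusted p = 2.24e-08) and the sinusoidal lectin Clec4g 0.71 lower (adjusted p = 4.93e-05). The other 4 Stab2 probes gave 0.62, 0.31, 0.21 and 0.17, of which the last and the one before it did not pass the test (adjusted p = 0.125 and 0.0887). Of the red blood cell markers 2 of 8 were higher, and the beta-globin gene Hbb-b2 was 13.48 to 15.39 against 11.71 to 12.92, a difference of 1.70 (adjusted p = 6.38e-05). The list as a whole had a median of -0.25, with 5 of its 8 markers below 0, among them the alpha-globin gene Hba-a1 (-0.39, adjusted p = 0.382). Stellate cell markers had 1 of 17 higher and 1 lower, cholangiocyte markers 2 of 10 lower and hepatocyte markers 2 of 13 lower. With each mouse left out in turn, 1 (without Pparα-/- replicate 4, 7 or 8 or Pparα hep-/- replicate 2) to 4 (without Pparα hep-/- replicate 1) Kupffer cell markers were called. Stellate cell markers had 1 call without Pparα-/- replicate 6. Cholangiocyte markers had 0 calls without Pparα-/- replicate 1, 2, 4 or 7 or Pparα hep-/- replicate 8, and 1 without Pparα-/- replicate 6 or Pparα hep-/- replicate 2 or 3. By limma, 0 of 8 white adipocyte and 0 of 7 pancreas markers were called, and 0 and 1 had an unadjusted p under 0.05. Without Pparα-/- replicate 7, 1 pancreas marker was called. The part of these cells in the differences of the gene lists was not tested.

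Genes of lipoproteins and their receptors were mixed, with 4 of 28 higher and 8 lower. Vldlr, the receptor of very-low-density lipoproteins, was higher in Pparα-/- mice without overlap, from 9.37 to 10.80 (median 9.99) against 7.11 to 8.18 (median 7.95), a difference of 2.27, or 4.82-fold (standard error 0.26, adjusted p = 1.81e-09). WT mice had a median of 6.62. Pltp, the phospholipid transfer protein, was lower, from 9.06 to 9.60 (median 9.24) against 9.62 to 12.02 (median 11.08), with the lowest Pparα hep-/- mouse, replicate 1, just above the highest Pparα-/- mouse. Its difference was -2.04 (standard error 0.23, adjusted p = 1.13e-09). Apoa5, which promotes the clearance of triglycerides, was 0.71 lower without overlap (adjusted p = 5.24e-09).

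Bile acid genes had 2 of 27 higher and 7 lower. Cyp39a1, an oxysterol hydroxylase, ranged from 7.10 to 8.13 in Pparα-/- mice (median 7.73), from 10.36 to 11.36 in Pparα hep-/- mice (median 10.84) and from 10.63 to 12.28 in WT mice (median 11.71). The knockouts did not overlap, and differed by -3.05, or 8.27-fold (standard error 0.29, adjusted p = 1.12e-11). Cyp7b1, the hydroxylase of the alternative pathway, was 1.23 higher (adjusted p = 0.00301).

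Drug metabolism and conjugation had 9 of 50 members higher and 8 lower. Cyp2c39 was well above background on all 8 Pparα-/- arrays and on 0 of the 8 Pparα hep-/- arrays, with measured means of 7.91 and 5.07, so that it was at least 5.38-fold higher (adjusted p = 7.14e-22). Such a bound sets the bright group's mean against the lowest signal of probes above background on each array of the dim group, or the probe's own signal where that is higher. Cyp3a11, the main P450 of the Cyp3a family, was lower, from 9.06 to 12.60 (median 10.92) against 12.48 to 14.74 (median 13.17), a difference of -2.13 (standard error 0.44, adjusted p = 0.000212). Its relatives Cyp3a16 and Cyp3a41a, which are biased to females, differed by -2.01 (adjusted p = 0.000173) and -1.84 (adjusted p = 0.0019), and their probes may share transcripts with it.

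Sex-biased genes went both ways, with 6 of 26 male-biased genes higher and 2 lower, and 4 of 24 female-biased genes higher and 5 lower. Sult1e1, the oestrogen sulphotransferase, was 11.30 to 13.72 in Pparα-/- (median 12.74), 8.66 to 11.27 in Pparα hep-/- (median 10.31) and 5.62 to 11.72 in WT mice (median 6.75). Its difference between the knockouts was 2.52, without overlap (standard error 0.64, adjusted p = 0.00261). Mup20, a major urinary protein of males, was 1.00 lower (adjusted p = 7.36e-09), at 17.49 to 18.23 against 18.64 to 18.74, and its other probe was 0.35 lower (adjusted p = 0.00125). Moxd1 was spread over 5.14 to 12.88 in Pparα hep-/- mice and its difference of 3.05 (adjusted p = 0.0261) lost the call when any of 3 mice was left out.

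Of the genes of glucose handling and insulin and growth hormone signalling, 6 of 30 were higher and 5 lower. G6pc, which releases glucose from the liver, was 13.03 to 15.60 (median 14.24) against 13.72 to 15.90 (median 15.22), a difference of -1.33 (standard error 0.31, adjusted p = 0.000915). Igf1 was 0.48 higher without overlap (adjusted p = 3.01e-06), and the insulin receptor Insr 0.67 lower (adjusted p = 4.09e-10). Clock genes had 4 of 20 higher and 3 lower. Arntl, the activator that peaks opposite to its repressors, was 6.17 to 7.05 in 7 Pparα-/- mice and 10.21 in replicate 3, against 7.04 to 8.58 in Pparα hep-/- mice, a difference of -1.20 (adjusted p = 0.00596) or -1.37 without that replicate. With all mice but no array weights it did not pass (adjusted p = 0.0717). The same mouse had the lowest Per2 (10.25) and Tef (14.30) of its group, 2 genes that run in the opposite phase. Per2 was 0.44 higher (adjusted p = 0.00456) and Tef 0.42 higher (adjusted p = 0.00251) in Pparα-/- mice, and without that mouse 0.52 and 0.47. Neither passed without array weights (adjusted p = 0.0673 and 0.0541). The other Per2 probe (0.13, adjusted p = 0.482), 1 of the 3 other Tef probes (0.12, adjusted p = 0.494) and 1 of the 2 other Arntl probes (-0.50, adjusted p = 0.0864) did not pass the test. Per1, a repressor like Per2, went the other way, at -0.46 (adjusted p = 0.0423), a call lost when any of 9 mice was left out. Amino acid catabolism had 4 of 39 higher and 5 lower, with Bckdhb, a subunit of the branched-chain keto acid dehydrogenase, 0.99 higher without overlap (adjusted p = 1.33e-17). Genes of oxidative stress and glutathione had 2 of 22 higher and 3 lower.

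By the brightest probe of each gene, most of the largest differences without overlap belonged to genes outside these lists. Trim12a, a tripartite motif protein of antiviral defence, was well above background on all 8 Pparα hep-/- and 0 of the 8 Pparα-/- arrays, with means of 10.73 and 5.08, and was at least 34.7-fold lower in Pparα-/- mice (adjusted p = 2.55e-39). Its other probes, also above background on 0 of the 8 Pparα-/- arrays, were at least 4.97-fold and 1.69-fold lower. BC018473, a noncoding locus, was the reverse, with means of 9.40 in Pparα-/- and 4.92 in Pparα hep-/- mice, above background on 8 and 0 arrays, and at least 15.1-fold higher (adjusted p = 1.16e-24). Camk2b, a calmodulin-dependent kinase, ranged from 6.07 to 7.20 in Pparα-/- mice (7 of 8 above background) and from 11.10 to 11.64 in 7 Pparα hep-/- mice, with 8.78 in replicate 1. Its difference was -4.91 (standard error 0.16, adjusted p = 1.66e-28), and the other probe, above background on 0 of the 8 Pparα-/- arrays, was at least 2.37-fold lower. Sugct, a mitochondrial glutarate CoA-transferase, was 5.89 to 6.57 (median 6.21) against 9.25 to 10.56 (median 10.36), a difference of -4.18 (standard error 0.10, adjusted p = 1.98e-33).

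Pttg1, securin of the cell cycle, was 8.50 to 9.75 against 12.76 to 13.23, at -3.72 (adjusted p = 6.33e-33), and -1.80 in its other probe, which was above background on 1 of the 8 Pparα-/- arrays. Asic5, a bile acid sensitive ion channel, was 12.34 to 13.40 (median 12.89) against 8.95 to 9.75 (median 9.40), a difference of 3.46 (standard error 0.15, adjusted p = 1.06e-23), and its other probe gave 1.88. Prelid2, a mitochondrial lipid transfer protein, was 9.58 to 11.34 against 6.62 to 8.78, at 3.37 (adjusted p = 6.59e-16). In WT mice most of these genes were close to the Pparα hep-/- level, with 9.75 to 10.64 for Trim12a and medians of 4.90 for BC018473, 10.31 for Sugct, 13.02 for Pttg1, 9.05 for Asic5 and 7.04 for Prelid2. Camk2b was the exception, with WT mice at 9.25 to 10.05, above all Pparα-/- mice and below 7 of the 8 Pparα hep-/- mice.

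Within the Pparα-/- group Rbbp9, a serine hydrolase, fell into clearly separate levels. Replicates 1, 4 and 7 had 9.20, 9.41 and 9.56, and the other 5 mice 4.93 to 5.45, which is not well above background, against 10.36 to 10.76 in Pparα hep-/- and 10.26 to 10.65 in WT mice. The adjusted p was 3.9e-05, no exact size is given because 5 of the 8 Pparα-/- arrays were not well above background, and the other Rbbp9 probe gave 0.14 (adjusted p = 0.26). Aqp4, a water channel, had 3 levels by genotype in its brightest probe, with medians of 6.09 in Pparα-/- (6 of 8 arrays above background), 9.78 in Pparα hep-/- and 7.69 in WT mice, and a difference of -3.56 between the knockouts (adjusted p = 7.9e-16). Of its other probes 1 gave -2.72, with 2 of 8 Pparα-/- arrays above background, and 1 did not pass the test (-0.28, adjusted p = 0.165), with means of 6.35, 6.49 and 6.47. Lncbate1, a long noncoding RNA of brown fat, was 8.38 to 9.64 in Pparα-/- mice and 4.85 to 6.98 in Pparα hep-/- mice, above background in 2 of the latter, without overlap (adjusted p = 7.22e-16). Gldn, gliomedin, was above background on 0 of 8 Pparα-/- and all 8 Pparα hep-/- arrays, with means of 5.04 and 8.60, and was at least 7.85-fold lower (adjusted p = 4.9e-11). The remaining genes of these extremes were Gm31025, Tmc5, AA465934, Rad51b, 2410089E03Rik and Atp8b5, 2.95 to 4.06 higher, and BC049987 and 2610507I01Rik, 5.22 and 3.37 lower on the log2 scale. The other probe of Rad51b was higher (adjusted p = 0.0386), with 1 of 8 Pparα hep-/- arrays above background, so no exact size is given. Another probe of 2410089E03Rik gave 4.98 (adjusted p = 4.4e-13), whereas 2 more of its probes, at 0.17 and 0.13, and the other probe of Atp8b5, at -0.14, did not pass the test.

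Called probes without overlap were unevenly spread over the genome. Their share was 8.29% on chromosome 7, 7.75% on chromosome 9, 6.45% on chromosome 18 and 6.41% on chromosome 4, and 2.39% on chromosome 2, beside 4.40% of the 33105 probes with a position. Cut into stretches of 5 Mb with at least 20 probes, 21 of 448 stretches had a share of at least 15%, a limit chosen after the values were seen. They held 18% of the probes without overlap and 4.46% of all probes. The stretch of 5 Mb that starts at position 130000001 of chromosome 4 (mm9) had 34 such probes among 172, of which 13 were higher and 21 lower. In these 21 stretches, Pparα-/- and WT mice did not overlap at 16.9% of probes, beside 6.11% over the genome. Pparα hep-/- and WT mice did not overlap at 0.407%, beside 1.29%. These comparisons share their mice with the one that chose the stretches. On the HFD, with other mice, the knockouts did not overlap at 21.2% of the probes in these stretches, beside 6.51% over the genome.

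Around Ppara itself the share was not raised. Within 10 Mb 21.3% of 512 other probes were called and 2.73% without overlap, beside 25.2% and 4.40% over the genome, and within 2 Mb 23.6% of 72 were called. The largest difference within 2 Mb was that of Pnpla5, a lipase of lipid droplets, at 5.34 to 6.32 in 7 Pparα-/- mice and 9.99 in replicate 3, against 8.07 to 12.04 in Pparα hep-/- mice. Its difference was -3.73 (adjusted p = 4.63e-08), or -3.94 without that mouse, with 4 of 8 Pparα-/- arrays above background, and its other probe gave -1.56 (adjusted p = 2.45e-05). Its neighbour Pnpla3, a lipase that SREBP1 drives, had a difference of -1.87 (adjusted p = 0.00274) and was likewise highest in Pparα-/- replicate 3 (8.88, the next at 6.01). The other Pnpla3 probe was lower (adjusted p = 0.0459), with 1 of 8 Pparα-/- arrays above background, so no exact size is given.

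**Figure D5:**
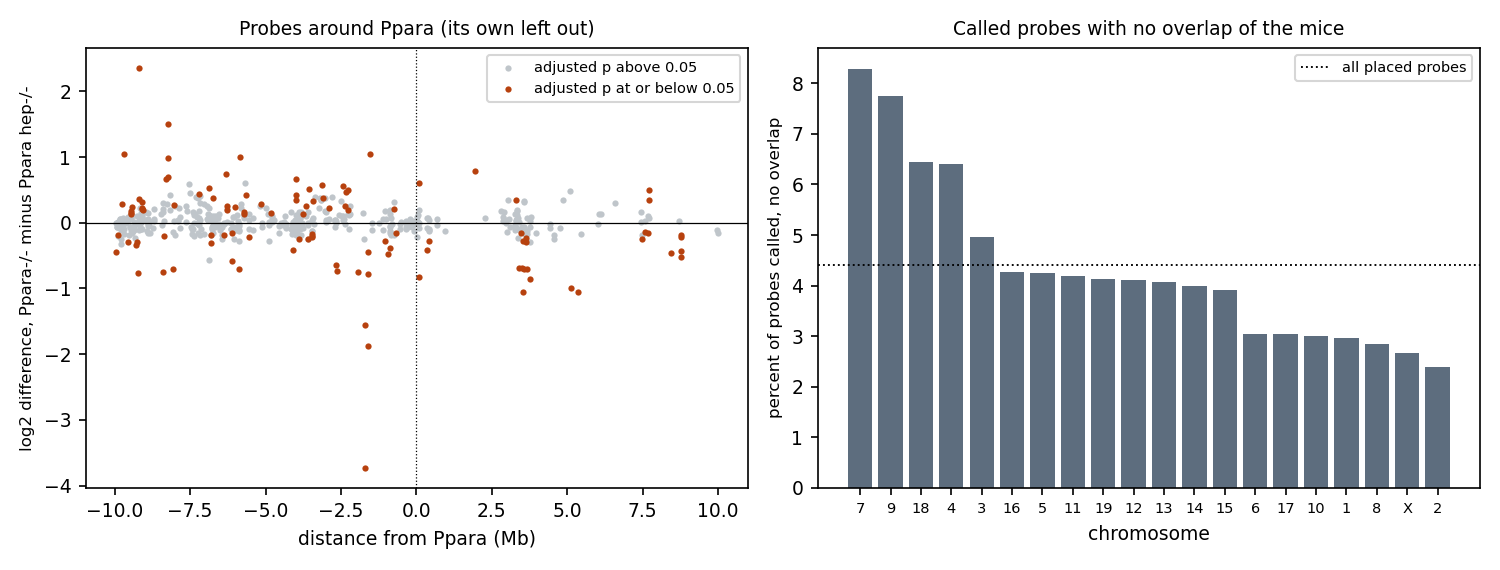
Left, log2 difference between Pparα-/- and Pparα hep-/- mice on the CTRL diet against the distance from Ppara in Mb, with 1 point per probe and called probes in orange. Right, percent of the tested probes of each chromosome that were called without overlap of the mice, where chromosomes 7, 9, 18, 4 and, by less, 3 stand above the 4.40% of all placed probes (dotted). Pnpla5, at -3.73, is the lowest point on the left.

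The same comparison in the HFD mice, which are other animals, tells which differences held on both diets. Of the 8401 probes called on the CTRL diet, 4953 (59.0%) were called on the HFD in the same direction and 74 in the opposite one. They are 48.6% of the 10188 probes called on the HFD. Of the 1468 probes without overlap, 1319 (89.9%) were called on the HFD in the same direction. The difference between the knockouts itself differed between the diets, in the test of the interaction, at 646 (7.69%) of the probes called on the CTRL diet. The interaction rests on the array weights, with 1139 probes called over the whole array and 110 without weights, and 399 without the filter on dim probes.

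The lists separated by diet. On the HFD, fatty acid and triglyceride synthesis was lower in 23 of 35 genes, with 2 higher and a median of -0.58, and the interaction was called for 5 genes. Over all genes 31.9% were called on the HFD, 16.9% higher and 15% lower, and the interaction was called for 3.93%. Scd1 was lower by more on the HFD (-4.41) than on the CTRL diet (-2.09; adjusted p of the interaction 0.00871). G6pdx, of the pentose phosphate pathway, turned from -1.02 to 0.46 (adjusted p of the interaction 0.000121). Cholesterol synthesis had 3 genes higher and 3 lower on the HFD, with a median of -0.06, and 8 of 24 genes had an interaction called. Sqle differed by 0.06 on the HFD and Hmgcs1 by -0.41, neither past the test (adjusted p = 0.91 and 0.236), while Sc5d was still 1.72 lower. Interferon-stimulated genes had 5 higher and 4 lower on the HFD, with a median of 0.07, and 10 of 39 had an interaction called. Ifi44 differed by -0.02 on the HFD (adjusted p of the interaction 0.00112). Pltp differed by 0.37 on the HFD, short of the test (adjusted p = 0.181; of the interaction 1.27e-05), Amacr by -0.17 (adjusted p = 0.532; of the interaction 0.00108) and Cyp39a1 by -0.79 (adjusted p = 0.0174; of the interaction 0.000435).

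PPARα targets and acute-phase proteins had called members on both diets. On the HFD, lipid droplet genes were lower in 13 of 34 and higher in 1, and peroxisomal and omega oxidation genes lower in 12 of 33 and higher in 4. Cyp4a10 differed by -2.08 on the HFD (adjusted p = 0.000455), Plin4 by -2.12 (adjusted p = 6.57e-05), Plin5 by -2.21 (adjusted p = 1.53e-08) and Vldlr by 2.01 (adjusted p = 2.14e-09). Acute-phase proteins had 11 of 28 higher and 1 lower on the HFD, where Lcn2 was 1.57 higher (adjusted p = 0.0319) and Saa1 differed by 0.12 (adjusted p = 0.881).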

How the data were processed

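Liver RNA of 48 mice was hybridised to 1-colour Agilent arrays, 1 mouse per array. The deposited scanner files hold spot intensity values from Feature Extraction (10.10.1.1, per the file headers), with mm9 probe positions. The authors also deposited a table of normalised log2 values, which was used as an alternative. Its 32815 shared probes correlated at 0.999 to 1 with the values used here.

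The median signal of each spot was taken to log2, control spots and outlier flags were left out and spots of a probe were averaged. Probes that exceeded background, by the scanner's flag, in 4 or more of the 8 mice of any group were kept (33323 of 56605) and quantile-normalised. limma (3.58.1, R 4.3.3) was fitted to all 48 arrays with array weights and the wash batch as covariate, and p-values were adjusted by the Benjamini-Hochberg method over all probes, with calls at 0.05. Both wash batches held both groups. A gene was read from its brightest probe.

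The comparison, the gene lists and the motifs were chosen with earlier results of these data known. Genes were named by rule. These were every Ppara probe, the 10 largest differences in each direction among called genes without overlap, up to 2 in each direction from each pathway list, up to 3 from each marker list and up to 6 near Ppara; other list members were named for their role after their values were seen. Some genes are not reported here. RefSeq windows (GRCm38.p6) gave promoter sequence. The fit was tested on simulated data. Alternatives were no weights, no wash term, slide as a block, other signals and normalisations, other filters, a stricter threshold, the replicate block, each mouse left out, each wash batch alone and other probes.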

Additional observations from a re-analysis of the deposited data

Results flagged for a closer look

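Single mice stood far from the rest of their group in 37 of 224 groups of 8 examined, where the gap to the nearest mouse, as a share of the group's range, was above Dixon's critical value. That value is set for about 1 in 20 groups to pass it, if groups are independent and normally spread. The groups here share their mice and belong to probes mostly chosen for their differences, so that rate does not apply to them. Of the 37, 16 were Pparα hep-/- replicate 1, the array with the lowest weight. It was lowest for both Ppara probes (13.26 and 11.77), Camk2b (8.78), Sugct (9.25) and Sult1b1 (10.75). It was highest for Atp8b5 (7.46), Prelid2 (8.78), Gldn (10.11), Amacr (14.38), Cyp3a41a (17.12), Il1b (8.16), Mpv17l (15.95), Ccr2 (8.20), Jchain (11.59), Rgs5 (9.49) and Cftr (7.27). Of the other Pparα hep-/- mice, replicate 4 was highest for BC018473 (5.24), replicate 3 lowest for Sult1e1 (8.66) and replicate 5 highest for Pnpla3 (11.56).

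Among Pparα-/- mice, replicate 3 was highest for Pdk4 (11.35), Arntl (10.21), Pnpla5 (9.99), Pnpla3 (8.88) and Celsr1 (11.76), and lowest for Pttg1 (8.50), Per2 (10.25), Tef (14.30) and Fam19a5 (5.84). Replicate 2 was highest for Plin4 (11.27), Cidec (10.32), Ifi44 (9.41) and Gpx4 (15.44), replicate 4 for Trim12a (5.59) and Camk2b (7.20), and replicate 1 for Mup20 (18.23). Replicate 8 was lowest for Itgam (9.59) and Clec4g (11.08).

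The interaction term of limma was called for 17 of the 111 named genes, beside 3.93% of all genes. It is given here as the difference on the HFD minus that on the CTRL diet. Most named genes were chosen for their difference on the CTRL diet, which is part of this term and favours smaller differences on the HFD. Over the whole array the interaction had 1139 calls with array weights and 110 without. The term was above 0 for Ppara (0.40, dimmer probe, adjusted p = 0.044), Pttg1 (0.61, 0.00234), Cyp39a1 (2.26, 0.000435), Ifi44 (1.58, 0.00112), G6pdx (1.48, 0.000121), Pltp (2.41, 1.27e-05), Apoa5 (0.49, 0.011), Cd4 (0.73, 0.0195) and Pnpla5 (2.72, 0.0132). It was below 0 for 2410089E03Rik (-2.88, adjusted p = 0.000135), Gm31025 (-1.06, 0.0468), Atp8b5 (-2.17, 0.00042), Amacr (-1.47, 0.00108), Scd1 (-2.31, 0.00871), Mup20 (-0.98, 0.000263), Ephx1 (-0.89, 0.0208) and Alas2 (-0.60, 0.042). Their causes were not tested.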

How the results depend on the processing

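The 8401 calls between the knockouts on the CTRL diet became 5490 at a threshold of 0.01 and 2537 within the first wash batch, which holds fewer mice. Leaving out each mouse gave 7045 (without Pparα-/- replicate 6) to 8437. Without array weights the 8401 calls fell to 6400, the HFD comparison from 10188 to 6047 and the interaction with diet from 1139 to 110. Without the filter the 8401 calls fell to 7051 and the interaction had 399. At 0.01 the interaction had 329 calls. Pparα hep-/- against WT had 4946 calls at 0.01 in place of 8241. With the replicate number as a block there were 8075 calls. The numbers do not pair the mice, since same-numbered mice correlated at -0.186 to 0.28 and 2 of 8 best with their own number. Other probes reversed the sign for Parvb (-0.01), Mpv17l (-0.30), Atp8b5 (-0.14), Xaf1 (5.21, fitted against a group below background), Rbbp9 (0.14) and Hal (-0.46). All 112 named probes kept their sign within both wash batches. Most were named for their difference in these same mice, which favours such agreement. Within the first batch 55 of them lost their call, and within the second 24, with fewer mice in each. Of the 111 called, 95 kept their call with any mouse left out, and 94 without weights. Calls lost without weights include Pdk4 (adjusted p = 0.058), Arntl (0.0717), Jchain (0.0619), Per2 (0.0673), Mpo (0.067) and Tef (0.0541). The brighter Ppara probe gained a call without Pparα hep-/- replicate 1 or 5, with the processed signal and with only the arrays compared. The causes were not tested. Probes above background on no array of a group give only bounds.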
